A study of Homo sapiens with 15 samples.

Results

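The 39 genes described here encode the integrated stress response factor ATF4, regulators and stress genes that act around it, enzymes that make serine, one-carbon units and other non-essential amino acids, and plasma membrane carriers that bring amino acids into the cell. They were taken as a list of symbols in 4 classes: 13 stress regulators, 9 serine and one-carbon enzymes, 8 other amino acid enzymes and 9 transporters. All 39 were found in all 15 libraries, among the 15703 symbols listed for both experiments of the study.

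RNA of A375, an established human melanoma line, was sequenced after overexpression of VAV1 or of RAC1P29S. VAV1 is a guanine nucleotide exchange factor for RAC GTPases, and RAC1P29S is a form of RAC1 found in melanoma that exchanges its nucleotide fast. All cells were grown in DMEM with fetal bovine serum and came as 5 groups of 3 cultures, which the design text calls biological triplicates. In the first experiment, 9 libraries came from cells with an empty vector and vehicle, cells overexpressing VAV1 with vehicle, and cells overexpressing VAV1 with the SRC family kinase inhibitor saracatinib. In the second experiment, 6 libraries came from untreated cells with an empty vector and untreated cells with RAC1P29S. Doses, treatment times and promoters are not given in the labels, there is no empty vector group with saracatinib, and whether a group's 3 cultures were transduced separately is not said. All p-values therefore rest on culture-to-culture spread alone, which may be technical. The genotype field of the 3 RAC1P29S samples reads empty vector, while their titles give RAC1P29S. Their log2 RAC1 level was 14.89 to 14.95 against 11.87 to 11.90 in the untreated controls, which matches the titles.

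The integrated stress response starts when 1 of several kinases phosphorylates the translation factor eIF2, for instance upon amino acid shortage or unfolded protein in the endoplasmic reticulum (ER). General translation then falls, while translation of the ATF4 messenger rises, so much of the control of ATF4 lies at the protein level and is not measured by RNA. ATF4 binds with C/EBP partners to the C/EBP-ATF response element of genes for amino acid import and synthesis, and of stress genes such as DDIT3, TRIB3 and CHAC1.

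The core of that element, TGATGNAA read on either strand, was searched in the RefSeq promoters of the GRCh38.p14 build, each from 250 bases before to 50 bases after a listed transcription start. A promoter was at hand for 32 of the 39 genes, in 58 windows. Those of NUPR1, PSPH, SHMT2, ALDH1L2, PYCR1, GPT2 and SLC7A11 were not used here. The core was found in 12 of the 32 genes (37.5%), against 1217 of 27305 genes (4.46%) over all RefSeq promoters given. Per window these shares were 24.1% and 3.62%, since the listed genes had 1.81 windows each and all genes 1.29. The list holds genes known as ATF4 targets, such as ASNS, so a higher share follows in part from how it was made. The cyclic AMP response element TGACGTCA was in 0 of the 58 windows and in 1.85% of all windows. The 6 genes with the core whose levels moved most under saracatinib are shown 5′ to 3′ on the strand of the gene, with the letters of the match in capitals, because they carry the element next to the starts of genes from all 4 classes.

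CHAC1: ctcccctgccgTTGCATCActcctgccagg
JDP2: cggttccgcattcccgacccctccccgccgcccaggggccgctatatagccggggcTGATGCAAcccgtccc
ASNS: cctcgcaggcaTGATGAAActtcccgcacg
MTHFD1L: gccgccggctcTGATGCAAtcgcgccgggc
SLC1A5: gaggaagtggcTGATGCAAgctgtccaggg
BCAT1: tgtcttcctgcTGATGCAAtccgctaggtc

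The CHAC1 stretch is chr15:40953251-40953280 on the plus strand, where the match reads TTGCATCA because the core lies on the opposite strand, and begins 209 bases before the start (position -209). The JDP2 stretch, chr14:75427950-75428021 on the plus strand, holds the core at position -16 and lies outside annotated exons. The ASNS stretch is chr7:97872458-97872487 on the minus strand, with the core at -68, where it is known as the nutrient-sensing response element. The MTHFD1L stretch is chr6:150866346-150866375 on the plus strand, the SLC1A5 stretch chr19:46784893-46784922 on the minus strand, at -97 of the listed start, and the BCAT1 stretch chr12:24949131-24949160 on the minus strand, at -48. The matches in CHAC1, ASNS, MTHFD1L, SLC1A5 and BCAT1 lie within exons of some GENCODE transcripts of the same gene, so other starts upstream of them are annotated. A match of letters is a description and does not show that a factor binds there.

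The deposited values fit log2 of a normalized count plus 1, a unit inferred here because the labels do not state it. All levels and fold changes below are on that log2 scale, which understates the change of genes with low values. Summed normalized counts were 14443918 to 16262759 per library, and the number of reads behind them is unknown. The VAV1 level was 1.90 to 2.49 in the empty vector libraries with vehicle and 13.86 to 14.16 in the 6 VAV1 libraries. Melanocytic markers (7 of 9 listed in the first experiment, TYR and DCT not listed) summed to 8995 to 9515 normalized counts with the empty vector, 2998 to 3133 with VAV1 and 3589 to 3731 with VAV1 and saracatinib. In the second experiment they summed to 11230 to 12248 without and 5407 to 5815 with RAC1P29S. SOX10, a transcription factor of the melanocytic lineage, held most of each of these sums. Its log2 level was 10.77 to 13.26 over the 15 libraries, and that of the pigment cell gene MLANA 0.96 to 4.45. MITF, the lineage's master regulator, ran against these sums: its level rose by 1.57 ± 0.11 with VAV1, fell by 1.09 ± 0.11 with saracatinib and rose by 1.23 ± 0.11 with RAC1P29S. Epithelial markers (3 of 5 listed, EPCAM and KRT5 not listed) summed to 5886 to 6672, 12924 to 13895 and 7962 to 8382 in the first experiment, and to 2920 to 3337 and 6041 to 6745 in the second. Of these, only the keratins KRT8 and KRT18 had a mean of at least 10 normalized counts in any group. CDH1 was at a log2 level of 0.90 to 2.96 over the 15 libraries. Haematopoietic markers (5 of 7 listed in the first experiment, CD3E and HBB not listed) summed to 705 to 755, 1172 to 1224 and 2451 to 2686, and to 406 to 482 and 938 to 1039 in the second. In both experiments CD68 and LYZ were the only ones with a mean of at least 10 normalized counts in any group, and with VAV1 and RAC1P29S they moved apart. CD68 rose by 1.21 ± 0.06 with VAV1 and 1.45 ± 0.10 with RAC1P29S, LYZ fell by 2.11 ± 0.14 and 0.89 ± 0.16, and with saracatinib both rose, by 1.11 ± 0.06 and 0.69 ± 0.14. Fibroblast and endothelial markers summed to at most 245 and 111 in any library. The share of mitochondrially encoded transcripts was 1.45% to 1.87% with the empty vector and vehicle, 1.01% to 1.38% with VAV1 and 1.44% to 2.003% with saracatinib. The part of these shifts in the results below was not tested.

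Most of the 39 genes were higher in cells with VAV1, and most were lower again when those cells received saracatinib. With VAV1, 32 of 39 rose, 3 fell and 4 passed no threshold (limma, Benjamini-Hochberg adjusted p under 0.05 over all 14410 genes tested), where 23.6% of all genes tested rose and 20.1% fell. Their median log2 fold change was 0.50, against 0.02 over all genes. Past a log2 fold change of 0.5 (1.41-fold), 20 were higher and 1 was lower, against 9.56% and 11.8% of all genes. With saracatinib, 32 of 39 fell and 1 rose, where 19.1% of all genes fell and 18.3% rose, and the median was -0.77, against -0.01. Past the same fold, 27 were lower and 0 higher, against 6.07% and 9.74%, the single rise called by limma (DDIT4) being smaller than that fold. The 2 comparisons share the VAV1 libraries with vehicle, so a value that is high there raises the first fold change and lowers the second, and they are not independent. In bulk RNA, fewer cells of a kind and less RNA per cell cannot be told apart.

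**Figure D1:**
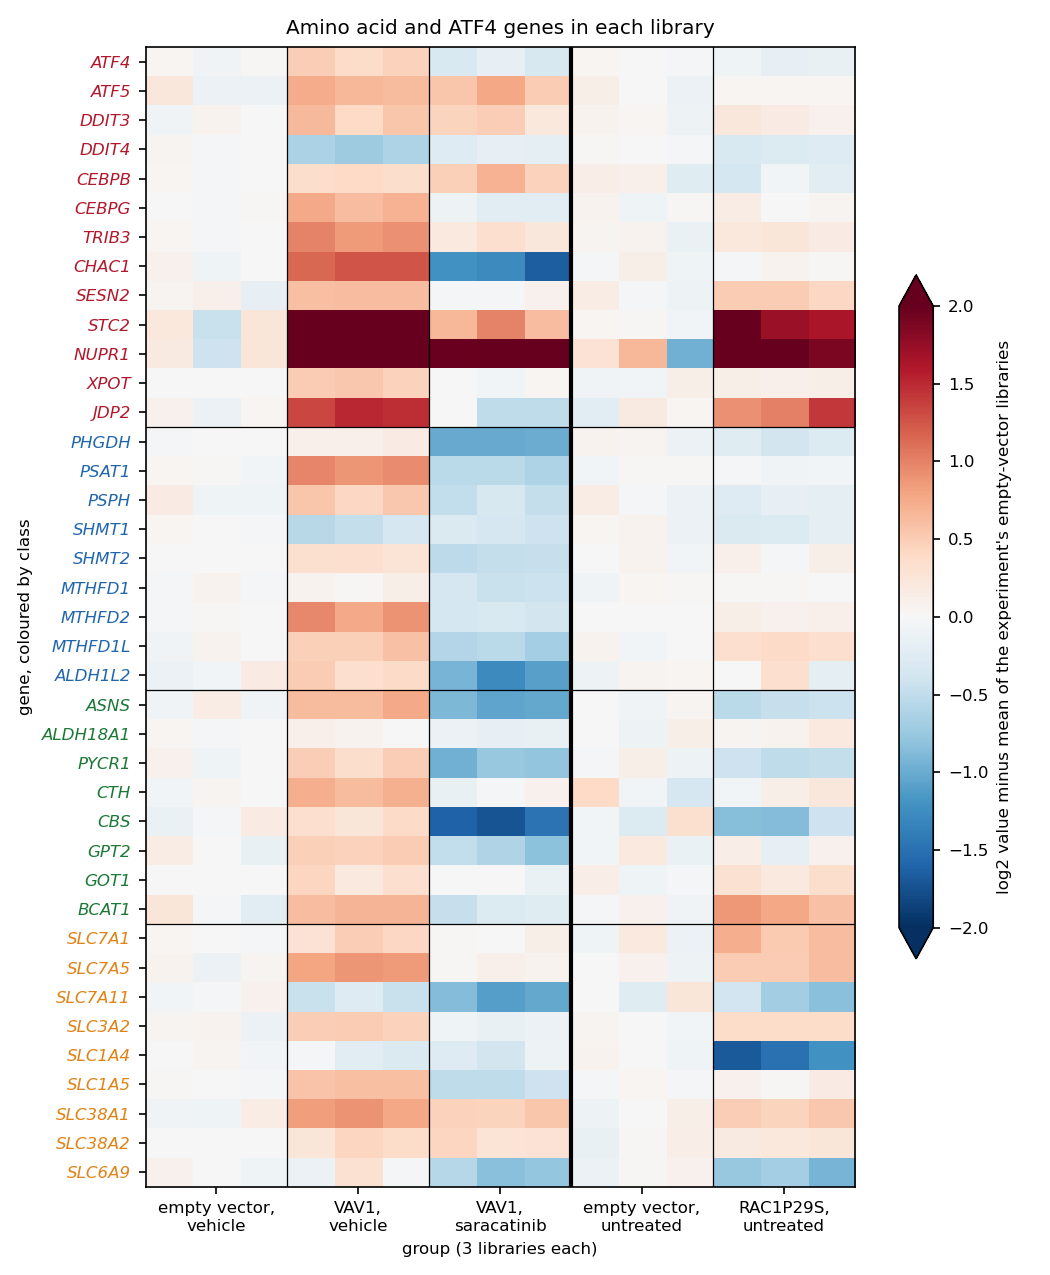
Log2 level of each of the 39 genes (rows, coloured by class) in each of the 15 libraries (columns), minus the mean of the empty vector libraries of the same experiment; colours saturate at -2 and 2. The 3 VAV1 libraries with vehicle are red for most genes and the 3 with saracatinib blue for most enzymes, while the RAC1P29S libraries hold both colours.

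In all 4 classes most genes rose with VAV1. Of the 13 stress regulators 12 rose and 1 fell (median 0.68), of the 9 serine and one-carbon enzymes 7 rose and 1 fell (0.41), of the 8 other enzymes 7 rose and 0 fell (0.46), and of the 9 transporters 6 rose and 1 fell (0.40). With saracatinib 9, 8, 8 and 7 of them fell in the same order of classes, with medians of -0.67, -1.11, -1.05 and -0.61. The only gene of the 39 that rose with saracatinib was a stress regulator, DDIT4.

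ATF4 itself rose with VAV1 and fell below the control with saracatinib. Its log2 level was 12.57, 12.47 and 12.56 in the empty vector libraries, 13.03, 12.89 and 12.99 with VAV1 and 12.22, 12.37 and 12.21 with VAV1 and saracatinib. The 3 groups did not overlap, with the VAV1 libraries highest and the saracatinib libraries lowest. The level rose by 0.44 ± 0.05 with VAV1 (limma adjusted p = 2.02e-05) and fell by 0.70 ± 0.05 with saracatinib (adjusted p = 3.69e-07). The C/EBP family genes, whose proteins pair with ATF4, moved in different ways. CEBPG rose by 0.69 ± 0.07 and fell by 0.87 ± 0.07, both past the threshold. CEBPB rose by 0.37 ± 0.08 with VAV1, and its fold change with saracatinib was 0.18 ± 0.08 (adjusted p = 0.107).

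Among the genes that ATF4 is known to switch on, CHAC1, which encodes a glutathione-degrading enzyme, had the largest fall of the 39 with saracatinib. Its level was 7.82, 7.64 and 7.72 with the empty vector, 8.87, 8.98 and 8.98 with VAV1 and 6.51, 6.46 and 6.08 with saracatinib. The VAV1 libraries lay above, and the saracatinib libraries below, every control library. It rose by 1.22 ± 0.13 (limma adjusted p = 4.64e-06) and fell by 2.59 ± 0.13 (6.03-fold, adjusted p = 4.90e-09). TRIB3, a pseudokinase that restrains ATF4 signalling, rose by 0.92 ± 0.06 and fell by 0.67 ± 0.06. DDIT3, the pro-apoptotic factor CHOP, rose by 0.54 ± 0.11 with VAV1, and its fold change with saracatinib was -0.15 ± 0.11 (adjusted p = 0.297). The bZIP factor ATF5 likewise rose by 0.68 ± 0.11 with VAV1 and had a fold change of -0.07 ± 0.11 with saracatinib (adjusted p = 0.658). SESN2, a leucine sensor that restrains mTORC1, rose by 0.61 ± 0.09 and fell by 0.61 ± 0.09, and XPOT, which exports transfer RNA from the nucleus, rose by 0.50 ± 0.04 and fell by 0.52 ± 0.04.

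The largest rises with VAV1 were those of NUPR1, STC2 and JDP2. NUPR1, a small stress-induced chromatin protein, was at 5.45, 4.85 and 5.51 with the empty vector, 8.68, 8.70 and 8.77 with VAV1 and 7.24, 8.02 and 8.07 with saracatinib. All VAV1 libraries exceeded the control libraries, and the saracatinib libraries lay between. NUPR1 rose by 3.45 ± 0.22 (10.9-fold, limma adjusted p = 5.34e-08) and fell by 0.94 ± 0.22 (adjusted p = 0.00479). STC2, a secreted glycoprotein, was at 7.52, 6.87 and 7.55 with the empty vector, 9.51, 9.54 and 9.45 with VAV1 and 7.99, 8.31 and 7.93 with saracatinib. The second control library was the lowest of the 9, and the groups did not overlap. STC2 rose by 2.18 ± 0.16 (adjusted p = 2.44e-07) and fell by 1.42 ± 0.16 (adjusted p = 2.03e-05).

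JDP2, a bZIP repressor that dimerizes with JUN, was at 6.22, 6.02 and 6.18 with the empty vector, 7.48, 7.66 and 7.62 with VAV1 and 6.15, 5.64 and 5.63 with saracatinib. The VAV1 libraries were above all others, and the saracatinib libraries reached into the range of the controls. It rose by 1.44 ± 0.17 (limma adjusted p = 1.66e-05) and fell by 1.78 ± 0.17 (adjusted p = 3.40e-06). DDIT4, which restrains mTORC1 under stress, was at 11.80, 11.71 and 11.73 with the empty vector, 11.12, 11.04 and 11.14 with VAV1 and 11.49, 11.59 and 11.57 with saracatinib. It ran the other way from its class, lowest in the VAV1 libraries and highest in the controls, without overlap. DDIT4 fell by 0.65 ± 0.05 with VAV1 (adjusted p = 1.80e-07) and rose by 0.45 ± 0.05 with saracatinib (adjusted p = 1.03e-05).

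**Figure D2:**
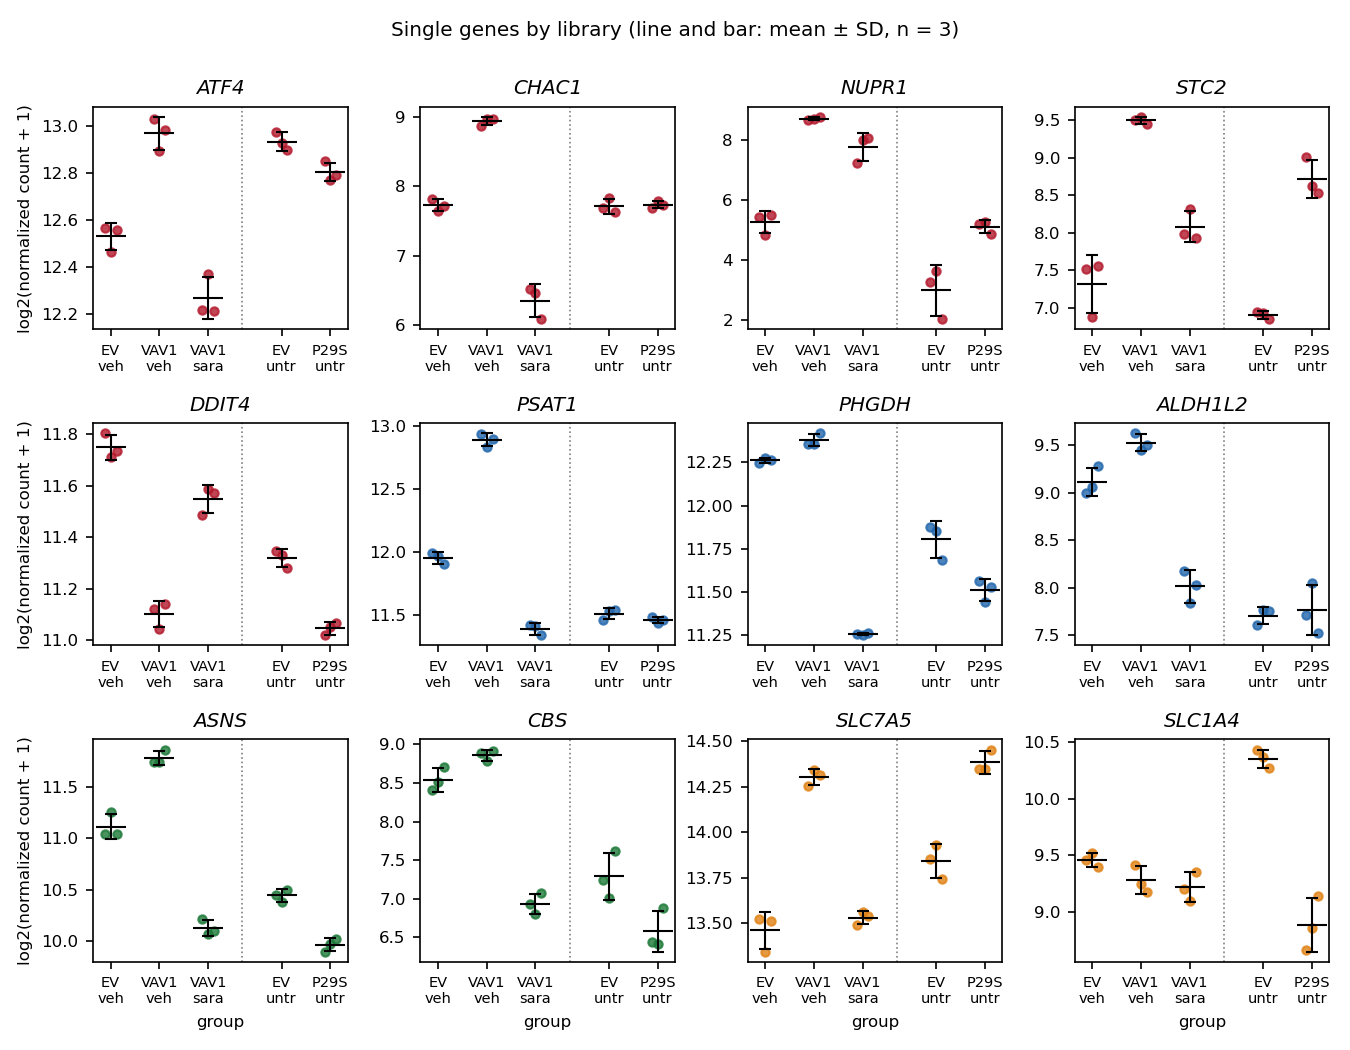
Log2 level of 12 of the genes in each library (points), with the mean (line) and SD (bar) of the 3 libraries per group; EV is empty vector, veh vehicle, sara saracatinib, untr untreated and P29S RAC1P29S, and the dotted line parts the 2 experiments, which were normalized separately. ATF4, CHAC1, PSAT1 and ASNS are highest with VAV1 and lowest with saracatinib in the first experiment, while CHAC1 and PSAT1 overlap between the groups of the second.

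Serine synthesis runs from a glycolytic intermediate through PHGDH, PSAT1 and PSPH, and its 3 genes rose with VAV1 and fell with saracatinib. PHGDH, the entry step, was at 12.24, 12.27 and 12.27 with the empty vector, 12.36, 12.36 and 12.42 with VAV1 and 11.25, 11.25 and 11.26 with saracatinib. The VAV1 libraries were barely above the controls, and the saracatinib libraries lay far below both. PHGDH rose by 0.12 ± 0.04 with VAV1 (limma adjusted p = 0.0272) and fell by 1.12 ± 0.04 with saracatinib (adjusted p = 2.20e-10). The call with VAV1 was lost without empty vector library 1 or 3 or VAV1 library 3 (adjusted p of 0.0639 to 0.119), and under upper-quartile scaling, quantile normalization or an untrended fit (0.0757 to 0.197). PSAT1, the aminotransferase step, was at 11.99, 11.97 and 11.90 with the empty vector, 12.94, 12.84 and 12.90 with VAV1 and 11.42, 11.41 and 11.34 with saracatinib. The 3 groups stood apart, highest with VAV1 and lowest with saracatinib. PSAT1 rose by 0.94 ± 0.05 (adjusted p = 1.89e-09) and fell by 1.504 ± 0.05 (adjusted p = 8.17e-11). PSPH, the phosphatase of the last step, rose by 0.50 ± 0.09 and fell by 0.93 ± 0.09.

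The 4 mitochondrial one-carbon enzymes, which load carbon units from serine onto folate or process them further, rose with VAV1 and fell with saracatinib. MTHFD2, a dehydrogenase and cyclohydrolase, was at 11.98, 12.03 and 11.98 with the empty vector, 12.95, 12.75 and 12.89 with VAV1 and 11.64, 11.70 and 11.63 with saracatinib. The VAV1 libraries were highest and the saracatinib libraries lowest, without overlap. MTHFD2 rose by 0.87 ± 0.05 (limma adjusted p = 1.30e-08) and fell by 1.21 ± 0.05 (adjusted p = 1.07e-09). MTHFD1L, which releases formate from the mitochondrion, was at 9.94, 10.09 and 10.01 with the empty vector, 10.50, 10.49 and 10.59 with VAV1 and 9.43, 9.48 and 9.33 with saracatinib, and rose by 0.52 ± 0.07 and fell by 1.11 ± 0.07. ALDH1L2, which oxidizes mitochondrial formyl-folate, was at 9.004, 9.06 and 9.29 with the empty vector, 9.63, 9.45 and 9.51 with VAV1 and 8.18, 7.84 and 8.03 with saracatinib. Its saracatinib libraries lay far below every other library. ALDH1L2 rose by 0.41 ± 0.10 (adjusted p = 0.00594) and fell by 1.51 ± 0.10 (adjusted p = 1.45e-07). SHMT2, the mitochondrial serine hydroxymethyltransferase, rose by 0.31 ± 0.04 and fell by 0.80 ± 0.04.

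Neither of the cytosolic enzymes rose with VAV1. SHMT1, the cytosolic counterpart of SHMT2, was at 10.61, 10.58 and 10.53 with the empty vector, 10.02, 10.09 and 10.23 with VAV1 and 10.28, 10.23 and 10.15 with saracatinib. It was highest in the controls, and its VAV1 and saracatinib libraries overlapped. SHMT1 fell by 0.46 ± 0.06 with VAV1 (limma adjusted p = 8.02e-05), and its fold change with saracatinib was 0.11 ± 0.06 (adjusted p = 0.229). MTHFD1, the cytosolic enzyme with 3 activities on folate, had a fold change of 0.07 ± 0.05 with VAV1 (adjusted p = 0.303) and fell by 0.47 ± 0.05 with saracatinib (adjusted p = 9.00e-06).

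Of the other amino acid enzymes, ASNS, which makes asparagine from aspartate and is a standard ATF4 target, was at 11.04, 11.26 and 11.04 with the empty vector, 11.74, 11.74 and 11.86 with VAV1 and 10.21, 10.06 and 10.09 with saracatinib. Groups did not overlap, and the saracatinib libraries were far below the lowest control library. It rose by 0.67 ± 0.07 (limma adjusted p = 3.29e-06) and fell by 1.66 ± 0.07 (3.16-fold, adjusted p = 8.29e-10). PYCR1, the last step of mitochondrial proline synthesis, was at 10.54, 10.36 and 10.45 with the empty vector, 10.94, 10.80 and 10.95 with VAV1 and 9.49, 9.70 and 9.67 with saracatinib, again highest with VAV1 and lowest with saracatinib. PYCR1 rose by 0.44 ± 0.07 and fell by 1.28 ± 0.07. ALDH18A1, the first step of proline synthesis, had a fold change of 0.06 ± 0.05 with VAV1 (adjusted p = 0.372) and fell by 0.20 ± 0.05 with saracatinib (adjusted p = 0.00522).

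The pair of enzymes that turn homocysteine into cysteine fell with saracatinib. CBS, which joins homocysteine and serine, was at 8.41, 8.51 and 8.71 with the empty vector, 8.88, 8.78 and 8.92 with VAV1 and 6.93, 6.81 and 7.07 with saracatinib. Control and VAV1 libraries lay close together without overlap, and the saracatinib libraries far below both. CBS rose by 0.32 ± 0.11 with VAV1 (limma adjusted p = 0.0299) and fell by 1.93 ± 0.11 with saracatinib (3.8-fold, adjusted p = 2.07e-08). The rise lost its call without empty vector library 1 or 2 or VAV1 library 1 or 3 (adjusted p of 0.0734 to 0.117). CTH, which releases the cysteine, was at 7.27, 7.37 and 7.32 with the empty vector, 8.05, 7.96 and 8.04 with VAV1 and 7.18, 7.30 and 7.41 with saracatinib. Its saracatinib and control libraries overlapped below the VAV1 libraries. CTH rose by 0.69 ± 0.11 (adjusted p = 0.00019) and fell by 0.72 ± 0.11 (adjusted p = 0.000188).

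The transaminases rose and fell with the rest. BCAT1, the cytosolic branched-chain aminotransferase, was at 11.41, 11.13 and 10.95 with the empty vector, 11.78, 11.84 and 11.84 with VAV1 and 10.70, 10.88 and 10.92 with saracatinib. The VAV1 libraries were highest and the saracatinib libraries just under the lowest control library. BCAT1 rose by 0.66 ± 0.10 (limma adjusted p = 0.000174) and fell by 0.98 ± 0.10 (adjusted p = 8.94e-06). GPT2, the mitochondrial alanine transaminase, rose by 0.48 ± 0.09 and fell by 1.12 ± 0.09, and GOT1, the cytosolic aspartate transaminase, rose by 0.32 ± 0.07 and fell by 0.37 ± 0.07.

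Among the transporters, SLC7A5, the leucine exchanger LAT1, was at 13.52, 13.35 and 13.51 with the empty vector, 14.25, 14.34 and 14.31 with VAV1 and 13.49, 13.56 and 13.54 with saracatinib. The VAV1 libraries stood apart, and the other 2 groups overlapped. It rose by 0.84 ± 0.05 (limma adjusted p = 1.17e-08) and fell by 0.77 ± 0.05 (adjusted p = 5.64e-08). SLC3A2, its heavy chain, rose by 0.49 ± 0.05 and fell by 0.61 ± 0.05. The neutral amino acid and glutamine exchanger SLC1A5 was at 12.08, 12.07 and 12.05 with the empty vector, 12.63, 12.66 and 12.67 with VAV1 and 11.56, 11.56 and 11.65 with saracatinib. Its VAV1 libraries were highest and its saracatinib libraries lowest. SLC1A5 rose by 0.59 ± 0.04 (adjusted p = 8.19e-08) and fell by 1.06 ± 0.04 (adjusted p = 5.32e-10).

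SLC38A1, a sodium-coupled glutamine carrier, was at 11.38, 11.36 and 11.59 with the empty vector, 12.28, 12.34 and 12.22 with VAV1 and 11.90, 11.88 and 11.997 with saracatinib, the saracatinib libraries lying between the other groups. It rose by 0.84 ± 0.06 (limma adjusted p = 1.73e-07) and fell by 0.35 ± 0.06 (adjusted p = 0.000622). SLC38A2, a related carrier that responds to amino acid shortage, rose by 0.34 ± 0.05 with VAV1 and had a fold change of -0.01 ± 0.05 with saracatinib (adjusted p = 0.909). SLC7A1, the arginine and lysine carrier, rose by 0.40 ± 0.05 and fell by 0.35 ± 0.05. The glycine carrier SLC6A9 was at 8.43, 8.35 and 8.26 with the empty vector, 8.23, 8.66 and 8.33 with VAV1 and 7.77, 7.52 and 7.58 with saracatinib. Its control and VAV1 libraries overlapped, and its saracatinib libraries were below both. SLC6A9 had a fold change of 0.06 ± 0.12 with VAV1 (adjusted p = 0.722) and fell by 0.79 ± 0.12 with saracatinib (adjusted p = 0.000206).

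SLC7A11, the cystine and glutamate exchanger, differed from its class with VAV1. It was at 10.49, 10.53 and 10.64 with the empty vector, 10.11, 10.30 and 10.10 with VAV1 and 9.69, 9.45 and 9.54 with saracatinib, in steps downward without overlap. It fell by 0.38 ± 0.08 with VAV1 (limma adjusted p = 0.00136) and by a further 0.61 ± 0.08 with saracatinib (adjusted p = 4.12e-05). SLC1A4, a carrier of alanine, serine and cysteine, passed neither test, with fold changes of -0.18 ± 0.09 (adjusted p = 0.112) and -0.06 ± 0.09 (adjusted p = 0.608). Without VAV1 library 1 it was called lower with VAV1 (adjusted p = 0.0487).

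**Figure D3:**
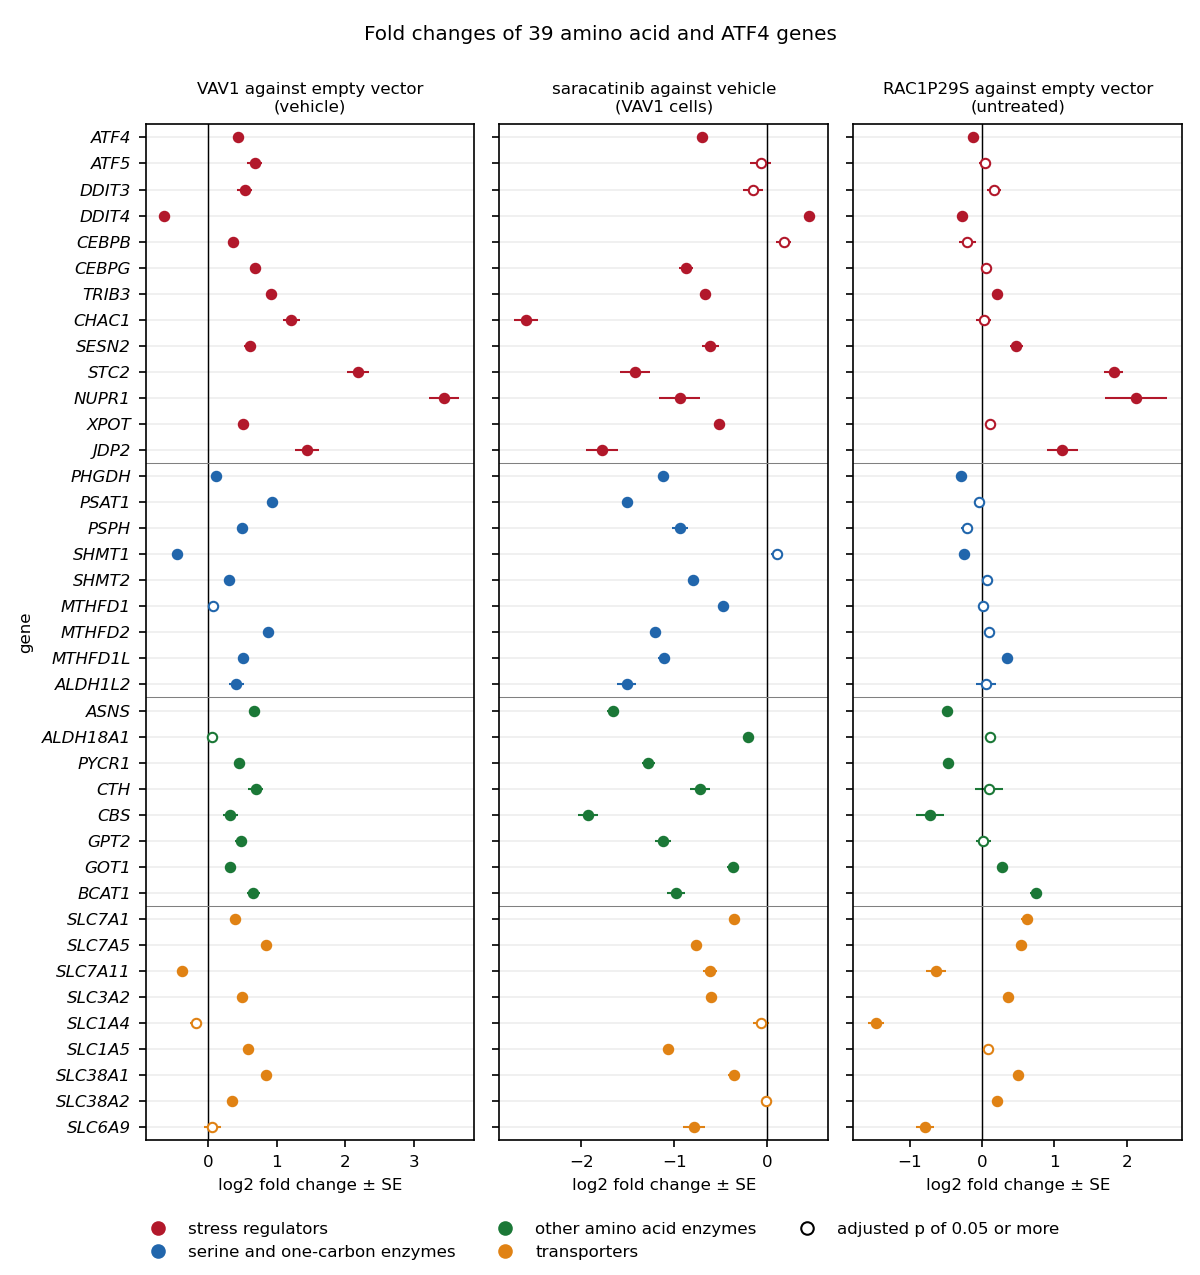
Log2 fold change (points) and SE (bars) of each of the 39 genes in 3 comparisons, coloured by class; open points have a limma adjusted p of 0.05 or more, and each panel has its own horizontal scale. Filled points lie right of 0 for 32 genes with VAV1, left of 0 for 32 with saracatinib, and on both sides with RAC1P29S.

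Compared with the empty vector cells with vehicle, VAV1 cells with saracatinib had lower levels of most enzymes and higher levels of some stress regulators. Of the 39 genes 22 were lower and 8 higher, where 21% of all genes tested were lower and 22.4% higher, and the median was -0.26 against 0.00381. Past a 1.41-fold change 11 were lower and 4 higher, against 9.62% and 11% of all genes. The rises were near the share of all genes at either threshold. All 9 serine and one-carbon enzymes were lower (median -0.49), as were 6 of the 8 other enzymes (median -0.48), with 0 higher in either class. The largest of these falls were those of CBS at -1.61 ± 0.11, ALDH1L2 at -1.10 ± 0.10, PHGDH at -1.01 ± 0.04 and ASNS at -0.99 ± 0.07. CTH and GOT1 did not pass the test, with -0.02 ± 0.11 and -0.04 ± 0.07.

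In that comparison 6 of the 13 stress regulators stood above the control and 3 below it, where 22.4% of all genes tested were higher and 21% lower. Those above the control were NUPR1 (2.51 ± 0.22), STC2 (0.76 ± 0.16), ATF5 (0.61 ± 0.11), CEBPB (0.55 ± 0.08), DDIT3 (0.38 ± 0.11) and TRIB3 (0.25 ± 0.06). Those below were CHAC1 (-1.38 ± 0.13), ATF4 (-0.26 ± 0.05) and DDIT4 (-0.20 ± 0.05). CEBPG, JDP2, XPOT and SESN2 passed no threshold. Of the 9 transporters, SLC38A1 (0.48 ± 0.06) and SLC38A2 (0.33 ± 0.05) were above the control, and SLC7A11 (-0.997 ± 0.08), SLC6A9 (-0.73 ± 0.12), SLC1A5 (-0.47 ± 0.04) and SLC1A4 (-0.24 ± 0.09) below it. The stress regulators below the control and the transporters above it were near the shares of all genes. Some calls turned on a single library or on the scaling. That of SLC1A4 was lost without empty vector library 1 or 2 or saracatinib library 1 or 2 (limma adjusted p of 0.0771 to 0.144), that of ALDH18A1 without empty vector library 1 or 3 or saracatinib library 2 or 3 (0.0695 to 0.0935), and that of BCAT1 without saracatinib library 1 (0.0694), while without empty vector library 1 the BCAT1 value was -0.20. An untrended fit ended all of these (0.0617 to 0.0666), and quantile normalization that of ALDH18A1 (0.0822). Without saracatinib library 1 CEBPG (0.0396) and JDP2 (0.0305) were called lower, and without empty vector library 3 SLC3A2 (0.0097). CEBPG was also called lower under upper-quartile scaling (0.0384), quantile normalization (0.0421) and an untrended fit (0.0486), and SLC3A2 under upper-quartile scaling (0.0492). This comparison is the sum of the 2 before it and shares libraries with both, and without an empty vector group with saracatinib it does not separate the inhibitor's effect on VAV1 cells from its effect on A375 cells in general.

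With RAC1P29S the same genes went both ways. Of 39, 13 were higher, 10 lower and 16 passed no threshold (limma, adjusted over the 14036 genes of the untreated experiment), where 15.6% of all genes tested were higher and 15.5% lower. The median was 0.06, against -0.00434 over all genes. Past a 1.41-fold change 6 were higher and 4 lower, against 7.79% and 7.8%. Stress regulators (5 higher, 2 lower) and transporters (5 higher, 3 lower) held most of the rises, while serine and one-carbon enzymes had 1 higher and 2 lower, and other enzymes 2 higher and 3 lower.

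NUPR1 and STC2 had the largest rises with RAC1P29S at the pseudocount of 1. NUPR1 was at 3.29, 3.66 and 2.04 in the untreated empty vector libraries and 5.21, 5.28 and 4.88 with RAC1P29S. Control library 3 was the lowest, and the groups did not overlap. NUPR1 rose by 2.13 ± 0.43 (limma adjusted p = 0.00388), or by 1.08 with a pseudocount of 16, below the lowest STC2 rise of any setting (1.68). NUPR1 met the filter of 10 normalized counts in 3 libraries only through the RAC1P29S libraries, so its entry into the test depended on that rise. STC2 was at 6.93, 6.93 and 6.85 in the controls and 9.01, 8.63 and 8.53 with RAC1P29S, with all RAC1P29S libraries above the controls, and rose by 1.82 ± 0.14 (adjusted p = 4.17e-06). JDP2 rose by 1.11 ± 0.21 and SESN2 by 0.48 ± 0.09. TRIB3 rose by 0.21 ± 0.07, a call lost without untreated control library 3 or any 1 of the RAC1P29S libraries (adjusted p of 0.0701 to 0.115).

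ATF4 was at 12.98, 12.93 and 12.90 in the untreated controls and 12.85, 12.77 and 12.79 with RAC1P29S. The RAC1P29S libraries were all below the controls, by less than the spread of the 3 controls at the closest pair. ATF4 fell by 0.13 ± 0.04 (limma adjusted p = 0.0384), and the call was lost without control library 1 or 2 or any 1 of the RAC1P29S libraries (adjusted p of 0.0515 to 0.134). DDIT4, at 11.35, 11.33 and 11.28 in the controls and 11.02, 11.05 and 11.07 with RAC1P29S, fell by 0.27 ± 0.05 (adjusted p = 0.00161), without overlap. CHAC1, ATF5, CEBPB, CEBPG, DDIT3 and XPOT passed no threshold, with fold changes of 0.02 ± 0.11, 0.04 ± 0.08, -0.20 ± 0.12, 0.06 ± 0.08, 0.16 ± 0.10 and 0.11 ± 0.05. Without control library 3 CEBPB was called lower (adjusted p = 0.0448) and XPOT higher (0.0102).

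Among the enzymes, the branched-chain transaminase BCAT1 rose and CBS, ASNS and PYCR1 fell. BCAT1 was at 9.53, 9.63 and 9.48 in the controls and 10.42, 10.32 and 10.14 with RAC1P29S, and rose by 0.74 ± 0.08 (limma adjusted p = 7.08e-05). CBS was at 7.25, 7.01 and 7.62 in the controls and 6.43, 6.42 and 6.88 with RAC1P29S. All RAC1P29S libraries were below the controls, with library 3 the highest in each group. CBS fell by 0.71 ± 0.19 (adjusted p = 0.0175), a call lost without control library 3 or RAC1P29S library 1 or 2 (adjusted p of 0.0602 to 0.0635). ASNS was at 10.45, 10.38 and 10.50 in the controls and 9.90, 9.97 and 10.02 with RAC1P29S, without overlap, and fell by 0.48 ± 0.06 (adjusted p = 0.000239). PYCR1 fell by 0.47 ± 0.07. GOT1 rose by 0.28 ± 0.07, a call lost without control library 2 or RAC1P29S library 1 or 3 (adjusted p of 0.0544 to 0.0667). CTH, GPT2 and ALDH18A1 had fold changes of 0.10 ± 0.20, 0.02 ± 0.10 and 0.10 ± 0.07 and passed no threshold.

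In the serine and one-carbon class, PHGDH was at 11.88, 11.85 and 11.68 in the controls and 11.56, 11.44 and 11.53 with RAC1P29S, every RAC1P29S library below every control. PHGDH fell by 0.29 ± 0.06 (limma adjusted p = 0.00462). MTHFD1L was at 9.99, 9.86 and 9.91 in the controls and 10.25, 10.31 and 10.26 with RAC1P29S, in the opposite order, and rose by 0.35 ± 0.06 (adjusted p = 0.00156). SHMT1 fell by 0.25 ± 0.07, a call lost without control library 1 or 2 or RAC1P29S library 1 or 2 (adjusted p of 0.0582 to 0.0722). PSAT1 was at 11.46, 11.53 and 11.54 in the controls and 11.49, 11.44 and 11.46 with RAC1P29S, overlapping, with a fold change of -0.05 ± 0.05 (adjusted p = 0.488). PSPH, SHMT2, MTHFD1, MTHFD2 and ALDH1L2 passed no threshold either, with -0.21 ± 0.08, 0.06 ± 0.05, 0.02 ± 0.05, 0.10 ± 0.04 and 0.06 ± 0.14, and without control library 3 PSPH was called lower (adjusted p = 0.0461).

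The transporters held the largest fall with RAC1P29S. SLC1A4 was at 10.42, 10.36 and 10.27 in the controls and 8.67, 8.86 and 9.14 with RAC1P29S, where the highest RAC1P29S library was more than 1 below the lowest control. SLC1A4 fell by 1.46 ± 0.11 (2.75-fold, limma adjusted p = 4.34e-06). SLC6A9 was at 7.68, 7.81 and 7.88 in the controls and 7.03, 7.11 and 6.87 with RAC1P29S, again without overlap, and fell by 0.79 ± 0.12 (adjusted p = 0.000852). SLC7A11 fell by 0.64 ± 0.14. The 5 that rose were SLC7A1 (0.62 ± 0.09), SLC7A5 (0.54 ± 0.05), SLC38A1 (0.49 ± 0.06), SLC3A2 (0.36 ± 0.04) and SLC38A2 (0.20 ± 0.06), of which SLC38A2 lost its call without control library 1 or 2 or any 1 of the RAC1P29S libraries (adjusted p of 0.0637 to 0.107). SLC1A5 had a fold change of 0.09 ± 0.05 (adjusted p = 0.193). An untrended fit ended the calls of ATF4, TRIB3, CBS, GOT1, SHMT1 and SLC38A2 with RAC1P29S (limma adjusted p of 0.0506 to 0.157). Upper-quartile scaling ended that of ATF4 (0.0646) and made MTHFD2 higher (0.0417), and quantile normalization ended that of SLC38A2 (0.0759).

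The VAV1 and RAC1P29S effects share no library, and their difference was tested over the 13810 genes of both experiments. The VAV1 effect was the higher of the 2 for 21 of the 39 genes and the lower for 1 (DDIT4), where 8.14% of all genes tested were higher and 7.7% lower, and the median difference was 0.39 against 0.01. Past a 1.41-fold difference these counts were 14 and 0, against 3.01% and 4.87%. The vehicle was present in only the first experiment, so the construct and the experiment cannot be told apart in this test. Across the 39 genes the 2 effects had a Pearson r of 0.798 and a Spearman rho of 0.581, and across all 13810 genes 0.739 and 0.580. These correlations describe genes, which are not independent replicates.

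Several enzymes had wide gaps between the 2 effects. The difference was 1.15 ± 0.09 for ASNS (limma adjusted p = 2.99e-07), 0.98 ± 0.06 for PSAT1 (adjusted p = 1.15e-08), 1.03 ± 0.22 for CBS (0.00394), 0.91 ± 0.10 for PYCR1 (1.48e-05) and 0.77 ± 0.06 for MTHFD2 (4.03e-07). Of the stress regulators, CHAC1 (1.20 ± 0.16), TRIB3 (0.71 ± 0.09), ATF5 (0.64 ± 0.14), CEBPG (0.62 ± 0.10), ATF4 (0.57 ± 0.07), CEBPB (0.57 ± 0.15) and XPOT (0.39 ± 0.07) were higher in the VAV1 effect. For SLC1A4 the difference was 1.28 ± 0.15 and for SLC6A9 0.85 ± 0.17, and both genes fell with RAC1P29S and passed no test with VAV1. The remaining 7 called higher were PHGDH (0.41), PSPH (0.71), SHMT2 (0.25), GPT2 (0.47), SLC7A5 (0.30), SLC1A5 (0.50) and SLC38A1 (0.34), of which GPT2 lost its call without 1 of 7 libraries taken singly (adjusted p of 0.056 to 0.0995): empty vector libraries 2 and 3 with vehicle, the 3 VAV1 libraries, untreated control 2 and RAC1P29S library 2. It was lost as well under upper-quartile scaling (0.0585), quantile normalization (0.0567) and an untrended fit (0.0822), and SLC38A1 lost its call under quantile normalization (0.0732) and an untrended fit (0.0531).

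ATF4, PHGDH, ASNS, PYCR1 and CBS were the 5 genes called higher with VAV1 and lower with RAC1P29S, and 0 genes had the reverse, where 0.652% and 0.434% of the 13810 genes tested in both experiments did so. In both, 13 genes were called higher and 3 lower (DDIT4, SHMT1 and SLC7A11), where 10.9% and 10.2% of those genes were. Of the 5 genes with opposite calls, only ASNS and PYCR1 kept both calls in every alternative setting. The call with RAC1P29S was lost in 8 of 15 settings for ATF4 and in 4 of 15 for CBS. The call with VAV1 was lost in 7 of 19 settings for PHGDH and in 4 of 19 for CBS. Differences that did not pass the test included those of STC2 (0.37 ± 0.23), JDP2 (0.33 ± 0.26), BCAT1 (-0.09 ± 0.14), SLC3A2 (0.12 ± 0.07) and SESN2 (0.13 ± 0.12). For NUPR1 the difference was 1.32 ± 0.47 (limma adjusted p = 0.0648), and it passed without untreated control library 3 (1.80, adjusted p = 0.00268), with a pseudocount of 4 (1.59, 0.00896) or 16 (1.93, 0.00015), and under quantile normalization (1.42, 0.0496). CTH passed without the same library (0.0154) and under quantile normalization (0.0461), SLC7A1, lower in the VAV1 effect, without untreated control 2 (0.0165), and ALDH1L2 without RAC1P29S library 2 (0.0497).

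**Figure D4:**
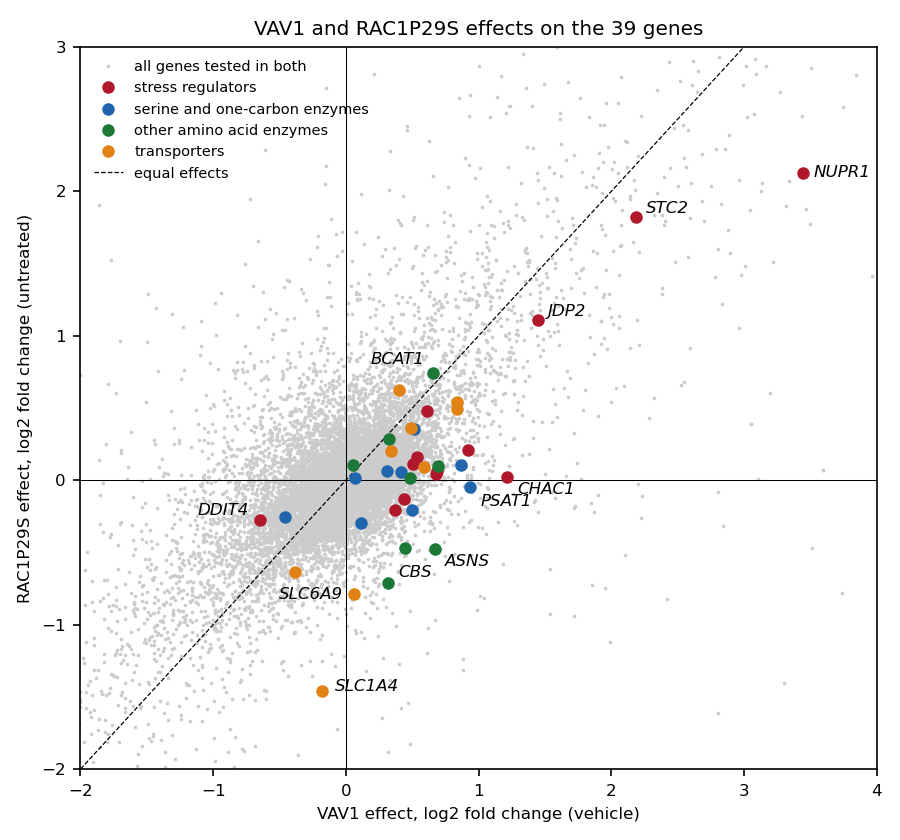
Log2 fold change with VAV1 (horizontal) against that with RAC1P29S (vertical) for the 39 genes, coloured by class, over the 13810 genes tested in both experiments (grey). The dashed line marks equal effects, and genes outside the axis range are not drawn. Most of the 39 lie right of 0 and below the dashed line, with CBS, ASNS, SLC6A9 and SLC1A4 below 0 on the vertical axis.

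Of the other genes of these pathways, those around eIF2 (18 tested) rose in 11 cases and fell in 2 with VAV1, and fell in 8 and rose in 2 with saracatinib. This list holds eIF2 kinases and their regulators, phosphatase subunits, subunits of eIF2 and eIF2B, and EIF2A. Over all genes tested 23.6% rose and 20.1% fell with VAV1, and 19.1% fell and 18.3% rose with saracatinib. PPP1R15A, the stress-induced subunit that brings a phosphatase to eIF2, rose by 0.93 ± 0.06 with VAV1, ahead of the double-stranded RNA-activated eIF2 kinase EIF2AK2 (0.54 ± 0.06) and the eIF2B subunit EIF2B3 (0.46 ± 0.09). With saracatinib the ER-resident eIF2 kinase EIF2AK3 (PERK) rose by 0.73 ± 0.10 and DNAJC3, an inhibitor of such kinases, by 0.39 ± 0.06, and the eIF2 subunit EIF2S2 fell by 0.40 ± 0.05. With RAC1P29S 7 of the 18 rose and 1 fell, where 15.6% and 15.5% of all genes did.

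ER chaperones and other targets of ATF6 and XBP1 belong to the further branches of the unfolded protein response. The list taken also names regulators of these branches (ATF6, ERN1 and XBP1). Of 22 tested, 2 rose and 10 fell with VAV1 (median -0.12), where 23.6% of all genes rose and 20.1% fell. With saracatinib 12 rose and 1 fell (median 0.17), where 18.3% and 19.1% of all genes did. With RAC1P29S 0 rose and 14 fell (median -0.26), where 15.6% and 15.5% did. Over the alternative settings the falls with VAV1 numbered 8 to 12, the rises with saracatinib 9 to 14 and the falls with RAC1P29S 10 to 14. ERO1B, an oxidase that renews disulfide-forming capacity in the ER, fell by 1.66 ± 0.12 with VAV1 and rose by 1.66 ± 0.12 with saracatinib. CRELD2 fell by 0.55 ± 0.12 and SEL1L, a subunit of the degradation machinery of the ER, by 0.48 ± 0.15 with VAV1. The co-chaperone DNAJB9 rose by 0.95 ± 0.10 and EDEM1, which sends misfolded glycoproteins to degradation, by 0.64 ± 0.05 with saracatinib.

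**Figure D5:**
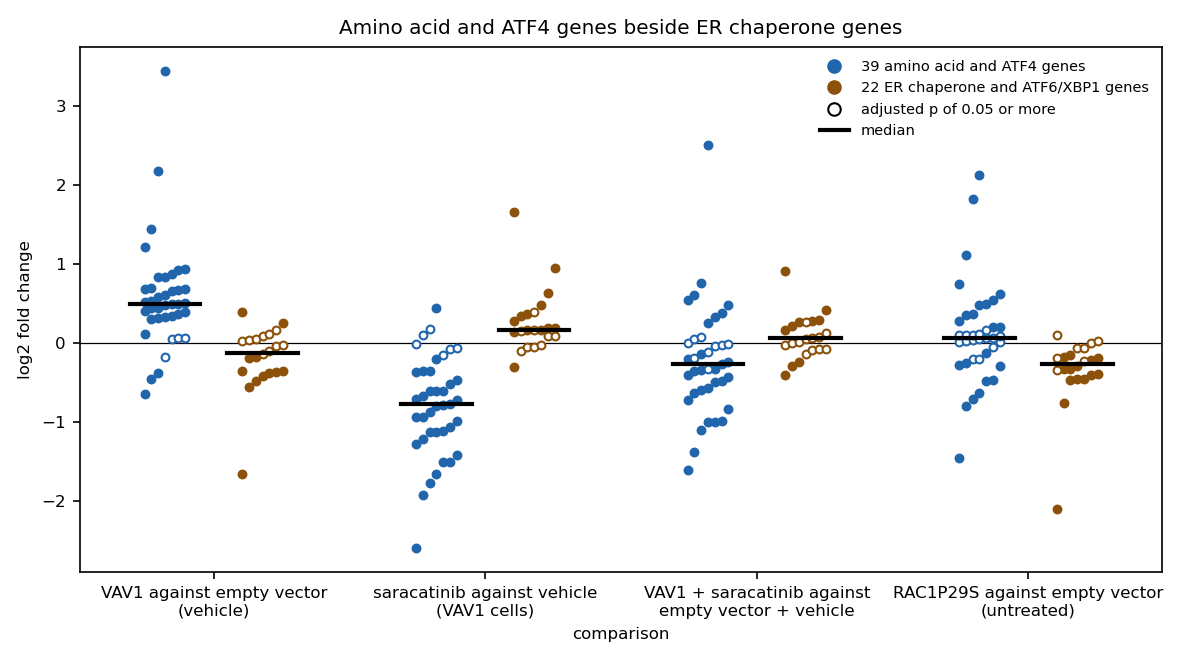
Log2 fold changes of the 39 genes (blue) and of the 22 genes tested from the list of ER chaperones and ATF6 or XBP1 genes (brown) in 4 comparisons, with open points at an adjusted p of 0.05 or more and a black line at each median. The medians are 0.50 and -0.12 with VAV1, -0.77 and 0.17 with saracatinib, and 0.06 and -0.26 with RAC1P29S.

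The enzymes and carriers outside the list are to be read against all genes tested, of which 23.6% rose and 20.1% fell with VAV1, 18.3% rose and 19.1% fell with saracatinib, and 15.6% rose and 15.5% fell with RAC1P29S. Other enzymes of serine, glycine and folate metabolism (23 tested) rose in 10 cases and fell in 3 with VAV1, and rose in 4 and fell in 7 with saracatinib. GLDC, which splits glycine in the mitochondrion, fell by 1.48 ± 0.22 with VAV1, and the mitochondrial carrier SFXN3 by 0.47 ± 0.07. With saracatinib thymidylate synthase (TYMS) and the folate carrier SLC19A1 fell by 0.57 ± 0.05 and 0.56 ± 0.12. Other amino acid enzymes (22 tested) rose in 4 and fell in 4 with VAV1, and rose in 3 and fell in 4 with saracatinib, shares near those of all genes. ODC1, the entry to polyamine synthesis, rose by 1.06 ± 0.07 and fell by 1.26 ± 0.07. Glutamine synthetase (GLUL) and BCKDHA, a subunit of the branched-chain keto acid dehydrogenase, fell by 0.57 ± 0.13 and 0.52 ± 0.13 with VAV1, and TST and the ornithine aminotransferase OAT rose by 0.53 ± 0.10 and 0.44 ± 0.05 with saracatinib.

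Other amino acid transporters (24 tested) rose in 7 cases and fell in 4 with VAV1, and rose in 10 and fell in 2 with saracatinib. Beside these counts and those of amino acid sensing below, 23.6% of all genes tested rose and 20.1% fell with VAV1. With saracatinib 18.3% rose and 19.1% fell. The rises of both lists with VAV1 were near the share of all genes. The glutamate carrier SLC1A1 fell by 1.66 ± 0.14 with VAV1, and SLC38A4 and the glutamate carrier SLC1A3 rose by 1.32 ± 0.43 and 0.96 ± 0.19. With saracatinib the proline carrier SLC6A20 rose by 3.93 ± 0.79, the neutral amino acid carrier SLC7A8 by 2.21 ± 0.58 and SLC1A3 by 1.72 ± 0.19. SLC6A20, SLC7A8 and SLC38A4 had low values, and their SE show that these were scattered. Genes of amino acid sensing by mTORC1 (31 tested) rose in 8 and fell in 4 with VAV1, with SESN3 at -1.47 ± 0.24, GATSL2 at -1.22 ± 0.32 and SEH1L at 0.62 ± 0.08. They rose in 9 and fell in 6 with saracatinib, with the RAG GTPases RRAGD, RRAGB and RRAGC up by 1.03 ± 0.12, 0.63 ± 0.17 and 0.61 ± 0.06. With RAC1P29S these 4 lists had 3 rises and 4 falls (serine, glycine and folate), 6 and 3 of 20 tested (other enzymes), 3 and 4 of 21 tested (transporters), and 1 and 4 (amino acid sensing). Of all genes tested, 15.6% rose and 15.5% fell with RAC1P29S.

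Set against the promoter matches shown above, the 12 genes that hold TGATGNAA rose in 11 cases and fell in 0 with VAV1, and fell in 11 and rose in 0 with saracatinib. Over all genes tested 23.6% rose and 20.1% fell with VAV1, and 19.1% fell and 18.3% rose with saracatinib. SLC1A4 was the holder that passed neither test. The 20 genes whose windows do not hold it rose in 15 and fell in 2 with VAV1, and fell in 14 and rose in 1 with saracatinib. Their median with saracatinib was -0.64, against -0.93 for the holders, and with VAV1 0.47 against 0.62. With RAC1P29S the holders rose in 7 cases and fell in 2 (ASNS and SLC1A4), and the others rose in 5 and fell in 6, where 15.6% of all genes rose and 15.5% fell. The medians were 0.32 and 0.07. In the difference of effects 6 holders were higher and 0 lower, and 11 of the others were higher and 1 lower. There 8.14% of all genes were higher and 7.7% lower. The medians ran the other way, at 0.34 for the holders and 0.40 for the others. No test was made between the holders and the others, and no match in these windows says nothing about sites elsewhere in a gene.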

How the data were processed

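The authors deposited 1 value per gene symbol and library, a log2 value that fits a normalized count plus 1. Per the submitters' processing notes, kallisto, DESeq2 and GRCh38 were used, with versions and annotation not given in the sources used here. The depth in reads is unknown. With the best step of each library, 47.0% to 53.4% of low values lay within 0.1 of a whole multiple. The median over all steps tried was 17.6% to 18.9%. Whole reads were not recovered in this way, so no count-based test or counting interval is given. Samples were grouped by their titles.

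Tests took in genes that reach a normalized count of 10 in 3 or more libraries, on the deposited log2 values (pseudocount 1), with limma 3.58.1 in R 4.3.3: 1 mean per group, empirical Bayes with trend and robust estimation, two-sided, Benjamini-Hochberg adjusted over all genes tested. The 9 libraries of the first experiment shared 1 fit, the second experiment's 6 had their own, and all 15 entered the fit for the difference between the effects. The 2 experiments list 16768 and 16295 symbols and were normalized separately, so levels are not compared across them. Values after ± are SE of fold changes.

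Library values are given for ATF4 and, per class, the 3 genes with the largest called change with VAV1, the 3 with saracatinib and the 2 with RAC1P29S. Genes called against most of their class are named, and of each further list up to 3 genes with the largest called change with VAV1 and 3 with saracatinib; 1 such gene is not reported here. The genes and lists were chosen with earlier results of these data known. Promoters are RefSeq's and exons those of GENCODE, both on GRCh38. Alternatives were other scalings, pseudocounts, filters, libraries in the fit, an untrended fit, a replicate block and leaving out each library.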

Additional observations from a re-analysis of the deposited data

How the results depend on the processing

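Each call of the 39 genes was recomputed in 14 to 25 alternative settings (a filter of 50 normalized counts left NUPR1 untested with RAC1P29S), and 0 called genes changed direction. With saracatinib all 39 calls were the same in all 19 settings. With VAV1 36 of 39 were, with VAV1 and saracatinib against the empty vector 33, with RAC1P29S 29 and for the difference of effects 33. Past a 1.41-fold change, 1 gene in place of 0 was higher with saracatinib under quantile normalization, and leaving out single libraries gave 1 to 2 genes lower with VAV1 (2 without VAV1 library 3). With no minimum fold, it gave 1 to 2 genes lower for the difference of effects (2 without untreated control library 2, the gene gained being SLC7A1). Upper-quartile scaling lowered the share of higher genes among all genes called in the difference of effects from 51.4% to 40.2%. Replicate numbers did not pair the libraries: residuals of same-numbered libraries correlated at -0.0547 to 0.0125 over 12 pairs. With the replicate number as a block, the genes called higher and lower were 31 and 3 with VAV1, 1 and 32 with saracatinib, 8 and 21 for VAV1 with saracatinib against the empty vector, 13 and 9 with RAC1P29S, and 21 and 1 for the difference. The block ended the calls of PHGDH with VAV1 (adjusted p = 0.0577), ATF4 with RAC1P29S (0.0663), SLC1A4 in VAV1 with saracatinib against the empty vector (0.0559) and GPT2 in the difference (0.0534), and made that of NUPR1 in the difference (0.0386). The number of reads behind low values, such as those of NUPR1, is unknown.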
